A study of Mus musculus with 10 samples.

Results

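RNA polymerase III (Pol III) and the proteins that bring it to its genes were followed in mouse oocytes that lacked most basonuclin mRNA. The set was a list of 29 genes: 10 subunits of the enzyme, the transcription factors TFIIIA, TFIIIB and TFIIIC (10 genes), the 5 subunits of SNAPc, 2 activators of small nuclear RNA promoters, and Maf1 and Ssb. They were found by gene symbol among the probe sets of the array. Of the 29, 27 had a probe set with their name, and 22 were bright enough to test, among 10590 genes tested in all. The mRNAs of Zfp143 and Pou2f1, the 2 activators, were not analysed here.

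The study measured total RNA of fully grown oocytes, which rest at the germinal vesicle stage, on oligonucleotide arrays. There were 6 samples from RNAi-transgenic mice and 4 from non-transgenic mice, and each sample held RNA of about 50 oocytes of 1 mouse. Per the design text, the transgene lowers basonuclin mRNA by RNA interference and does so only in oocytes. Its promoter, the number of founder lines, the strain and the age of the mice are not given in the sources used here. Samples keep their label's replicate number: 4, 5, 6, 11, 12 and 13 are RNAi-transgenic, and 1, 2, 7 and 8 are non-transgenic.

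Pol III makes short, untranslated RNAs, among them tRNAs, 5S ribosomal RNA, the 7SL RNA of protein export, the 7SK RNA that holds back an elongation factor, and U6 small nuclear RNA. TFIIIC binds inside tRNA genes, TFIIIA lets it bind at 5S genes, and both lead to the placing of TFIIIB, which recruits the enzyme. At U6 and 7SK genes SNAPc binds upstream of the gene instead. In the growing oocyte large stores of tRNA and 5S RNA are built up for the embryo. The arrays measured the mRNAs of these proteins and none of the RNAs that Pol III makes.

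Promoter windows from RefSeq (GRCm38.p6), which run from 250 bases before to 50 bases after the annotated start, were matched by symbol for 23 of the 29 genes, with 27 windows in all. The windows shown belong to 4 of the genes whose mRNA changed and that a window was held for: both enzyme subunits with lower mRNA, the SNAPc subunit with higher mRNA, and the gene of the La protein. Windows of Gtf3c6 and Snapc3, whose mRNA changed too, were held but are not shown. Each window shown is written 5′ to 3′ on the strand of its gene, and capitals mark a match, on either strand, to a motif named after them. Polr3b lies at chr10:84622048-84622347 on the plus strand, Polr3c at chr3:96727390-96727689 on the minus strand, Snapc1 at chr12:73964247-73964546 on the plus strand and Ssb at chr2:69861312-69861611 on the plus strand.
Polr3b: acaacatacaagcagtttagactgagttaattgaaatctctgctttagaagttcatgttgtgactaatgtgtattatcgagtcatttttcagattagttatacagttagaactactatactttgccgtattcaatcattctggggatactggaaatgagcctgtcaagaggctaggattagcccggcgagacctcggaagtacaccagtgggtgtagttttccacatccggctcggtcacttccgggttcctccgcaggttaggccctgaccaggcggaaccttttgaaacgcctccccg
Polr3c: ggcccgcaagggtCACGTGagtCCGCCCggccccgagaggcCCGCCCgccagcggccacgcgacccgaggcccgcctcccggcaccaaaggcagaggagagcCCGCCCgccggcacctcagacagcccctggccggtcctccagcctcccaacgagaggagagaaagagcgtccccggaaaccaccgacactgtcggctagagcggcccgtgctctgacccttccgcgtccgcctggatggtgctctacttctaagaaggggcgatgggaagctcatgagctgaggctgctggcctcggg
Snapc1: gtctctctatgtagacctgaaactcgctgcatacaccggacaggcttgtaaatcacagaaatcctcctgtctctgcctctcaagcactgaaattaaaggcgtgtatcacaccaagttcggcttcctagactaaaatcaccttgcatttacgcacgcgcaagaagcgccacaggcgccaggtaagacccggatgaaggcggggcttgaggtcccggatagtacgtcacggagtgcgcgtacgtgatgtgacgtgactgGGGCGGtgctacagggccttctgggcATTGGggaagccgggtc
Ssb: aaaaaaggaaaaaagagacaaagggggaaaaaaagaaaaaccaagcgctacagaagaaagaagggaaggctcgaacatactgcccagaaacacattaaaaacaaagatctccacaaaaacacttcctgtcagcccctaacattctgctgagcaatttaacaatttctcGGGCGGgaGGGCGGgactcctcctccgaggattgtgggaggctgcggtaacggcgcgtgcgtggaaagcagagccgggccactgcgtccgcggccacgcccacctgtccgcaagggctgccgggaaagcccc
The motifs searched were the octamer ATGCAAAT that Pou2f1 binds, the letters ACTACAA that open the best known Zfp143 site, the E-box CACGTG that Myc and Max bind, the CCAAT box and the GC box GGGCGG. The window of Polr3b held no match to any of them, that of Polr3c an E-box and 3 GC boxes, that of Ssb 2 GC boxes, and that of Snapc1 a GC box and a CCAAT box. Over all 27 windows the E-box was present in 5 (18.5%), in Polr3c, Polr3e, Polr3gl and both windows of Gtf3c6, against 7.15% of all 32851 mouse windows. The GC box was present in 16 (59.3%), against 35.7% of all windows, and CCAAT in 9 (33.3%), against 37.4%. ACTACAA was present in 2 (7.41%), those of Snapc3 and Pou2f1, against 3.24%. The octamer was in none of the 27 and in 1.74% of all windows. Windows of 1 gene can overlap: those of Gtf3c6 hold the same E-box, and those of Zfp143 the same GC and CCAAT boxes. Counted by gene, the E-box was in 4, the GC box in 15 and CCAAT in 8 of the 23. These are matches of letters in short windows and were not tested.

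Bnc1, the gene targeted, was near the floor of the array in every transgenic sample. Its log2 intensity was 3.67, 3.76, 3.91, 3.73, 4.26 and 3.78 in RNAi-transgenic samples 4, 5, 6, 11, 12 and 13, against 11.40, 11.51, 11.61 and 11.76 in non-transgenic samples 1, 2, 7 and 8. Set against the filter level of log2 5, it was at least 95.1-fold lower (limma adjusted p = 2.65e-11), and all 10 samples matched their labels. Of 15 oocyte markers 14 were tested, with 0 called higher and 2 called lower, and their summed intensity lay between 225429 and 264246 in transgenic and between 235427 and 250150 in non-transgenic samples. Of 11 stroma and vessel markers 6 were tested, of which 4 were higher and 1 lower, with sums of 721 to 989 in transgenic and 538 to 637 in non-transgenic samples. Of 15 granulosa and cumulus markers 8 were tested and 2 were higher, with sums of 1624 to 2706 in transgenic and 1690 to 1905 in non-transgenic samples. Of 9 blood markers 3 were tested, 1 higher and 1 lower. These marker counts stand against 18.9% higher and 18.3% lower over all genes tested. The part of other cells in the results on Pol III was not tested, and fewer cells of a type and less RNA per cell cannot be told apart in such samples. The log2 difference between 3′ and 5′ probe sets of Gapdh was 3.63 to 4.12 in transgenic and 3.72 to 4.34 in non-transgenic samples, and that of actin 3.40 to 5.13 in transgenic and 3.44 to 4.01 in non-transgenic samples. Non-transgenic sample 1 and transgenic sample 6, which had the actin value of 5.13, stood farthest from their own groups, with mean correlations of 0.980 and 0.986 to the other arrays of their group.

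The mRNAs of Pol III and its factors did not move as a block. Of the 22 tested, 2 were higher in transgenic oocytes (Polr3a and Snapc1), 5 were lower (Polr3b, Polr3c, Gtf3c6, Snapc3 and Ssb) and 15 did not pass the threshold of an adjusted p of 0.05 in limma. The higher calls were 9.09% of the members tested, against 18.9% of all genes tested, and the lower calls 22.7%, against 18.3%. In either direction 31.8% of the members were called, against 37.2% of all genes, a share near the background. The same 7 genes were those whose groups did not overlap, 2 higher and 5 lower, and over all genes 14.8% were higher and 13.1% lower without overlap. The median log2 difference (transgenic minus non-transgenic) was -0.22 over the 22 members and -0.03 over all genes. Of the 22 members 16 lay below 0, and of all 10590 genes tested 5719 did. The median size of the difference, regardless of sign, was 0.27 for the members and 0.24 for all genes. Without non-transgenic sample 1 the number of lower members was 8. Some parts of the set and some lists below also have a count at an unadjusted p below 0.05. The share of all genes at that level was not counted. It cannot be below the 37.2% past the adjusted threshold.

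**Figure D1:**
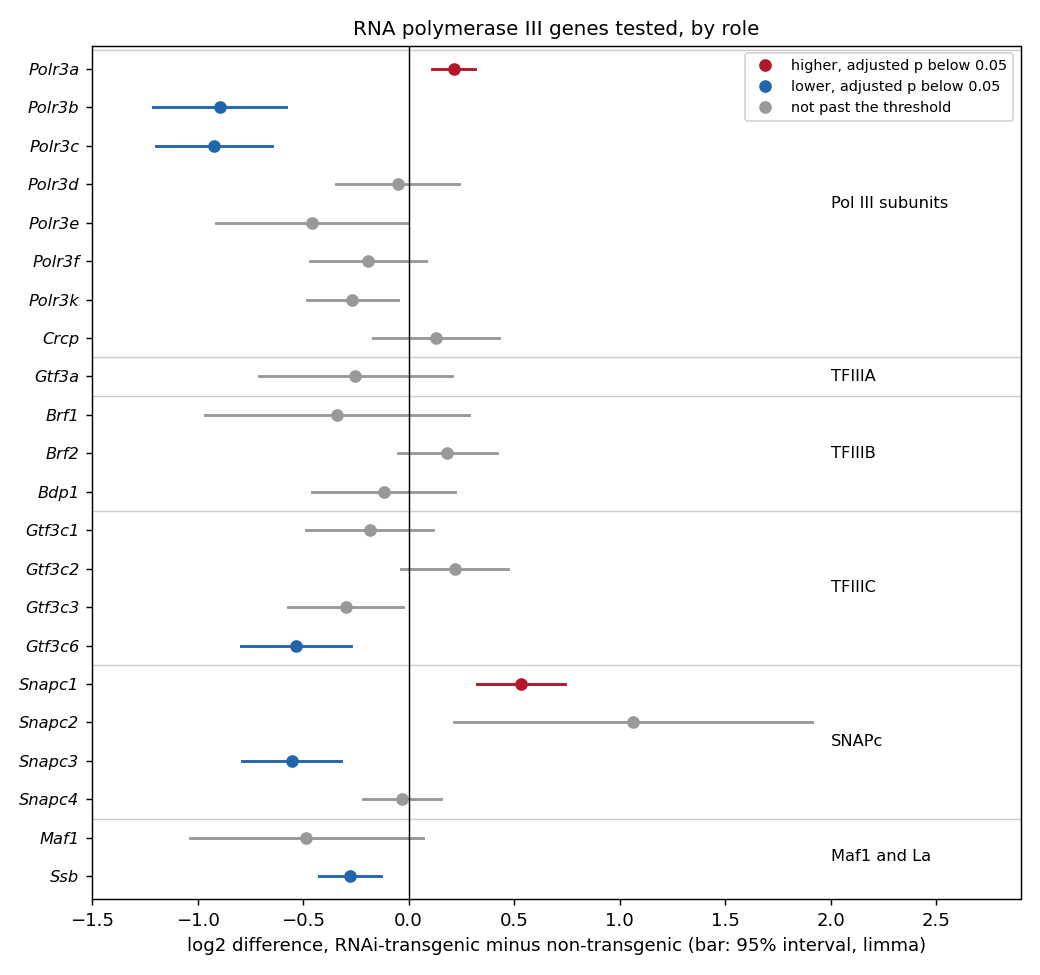
Log2 difference, RNAi-transgenic minus non-transgenic, of each of the 22 tested genes with its 95% interval from limma, grouped by role. Red points are higher, blue points lower and grey points did not pass an adjusted p of 0.05. Polr3b and Polr3c lie farthest to the left, at -0.90 and -0.92, and Snapc2, which did not pass, farthest to the right at 1.06.

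Among the subunits of the enzyme the catalytic pair differed in direction. Of the 10 subunits 8 were tested, with 1 higher, 2 lower and a median difference of -0.23. In either direction 37.5% of those tested were called, against 37.2% of all genes. Polr3a is the largest subunit and forms the active site with Polr3b. The log2 intensity of Polr3a was 13.72, 13.80 and 13.85 at the lowest, median and highest transgenic sample, against 13.52, 13.69, 13.56 and 13.53 in non-transgenic samples 1, 2, 7 and 8. The groups did not overlap, although transgenic and non-transgenic values came within a few hundredths of each other. Means were 13.79 ± 0.05 (SD, n = 6) in transgenic and 13.58 ± 0.08 (SD, n = 4) in non-transgenic oocytes, a difference of 0.21 with a 95% interval of 0.11 to 0.32 (limma adjusted p = 0.00457), or 1.16-fold. A dimmer probe set of Polr3a was also higher, at 10.73 in transgenic against 10.32 in non-transgenic oocytes (difference 0.41, limma adjusted p = 0.00648).

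Polr3b, the second largest subunit, was lower in transgenic oocytes. Its log2 intensity was 5.35, 5.62 and 5.98 at the lowest, median and highest transgenic sample, against 6.19, 6.71, 6.52 and 6.80 in non-transgenic samples 1, 2, 7 and 8. Every transgenic sample was below every non-transgenic one, but all were dim, close to the filter level. The means of 5.66 ± 0.21 (SD, n = 6) in transgenic and 6.55 ± 0.27 (SD, n = 4) in non-transgenic oocytes differed by -0.90 (95% interval -1.21 to -0.58, limma adjusted p = 0.000621), or 1.86-fold lower. A further probe set of Polr3b had 5.35 in transgenic and 5.50 in non-transgenic oocytes, a difference of -0.15 that did not pass (limma adjusted p = 0.167). The name of the brighter probe set carries the suffix the maker gives to sets that can match more than 1 transcript, so its value may hold other RNA.

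Polr3c, with Polr3f and either Polr3g or Polr3gl, forms a trimer needed to start transcription. Polr3c had the largest decrease of the set: 7.43, 7.85 and 8.00 at the lowest, median and highest transgenic sample, against 8.70, 8.90, 8.71 and 8.56 in non-transgenic samples 1, 2, 7 and 8. No transgenic sample came near a non-transgenic one. Means were 7.79 ± 0.22 (SD, n = 6) in transgenic and 8.72 ± 0.14 (SD, n = 4) in non-transgenic oocytes, a difference of -0.92 (95% interval -1.20 to -0.65, limma adjusted p = 0.000187), or 1.90-fold lower. The partner Polr3f averaged 8.23 ± 0.16 in transgenic and 8.42 ± 0.23 in non-transgenic oocytes (difference -0.19, 95% interval -0.46 to 0.08, limma adjusted p = 0.255), and its 2 further probe sets differed by 0.10 and -0.07. The alternative partners were too dim to test. Polr3g averaged 2.36 in transgenic and 2.41 in non-transgenic oocytes, and Polr3gl 4.73 ± 0.15 in transgenic and 5.11 ± 0.29 in non-transgenic oocytes, with only 2 non-transgenic samples of Polr3gl above the filter level, at 5.40 and 5.31. The planned ratio of Polr3g to Polr3gl was therefore not computed.

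The other subunits did not pass. Polr3d and Polr3e form a pair that takes part in starting and ending transcription. Polr3d averaged 7.09 ± 0.18 in transgenic and 7.14 ± 0.26 in non-transgenic oocytes (difference -0.05, 95% interval -0.35 to 0.24). Polr3e averaged 7.06 ± 0.15 in transgenic and 7.51 ± 0.54 in non-transgenic oocytes (difference -0.46, limma adjusted p = 0.105), with non-transgenic sample 1 at 6.70 and the next at 7.74. Without non-transgenic sample 1 Polr3e was lower, at -0.73 (limma adjusted p = 0.000509), while a further probe set of it differed by 0.09 over all samples. Polr3k, which serves RNA cleavage and termination, averaged 12.35 ± 0.12 in transgenic and 12.62 ± 0.22 in non-transgenic oocytes (difference -0.27, limma adjusted p = 0.0523). Of its 3 further probe sets, at -0.23, -0.11 and -0.44, the last passed (adjusted p = 0.0272 in limma). In all, Polr3k passed in 5 of 28 alternatives, that probe set among them, and its sign turned in 0. Crcp, a subunit of the stalk, averaged 8.67 ± 0.08 in transgenic and 8.54 ± 0.34 in non-transgenic oocytes (difference 0.13, 95% interval -0.17 to 0.43).

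**Figure D2:**
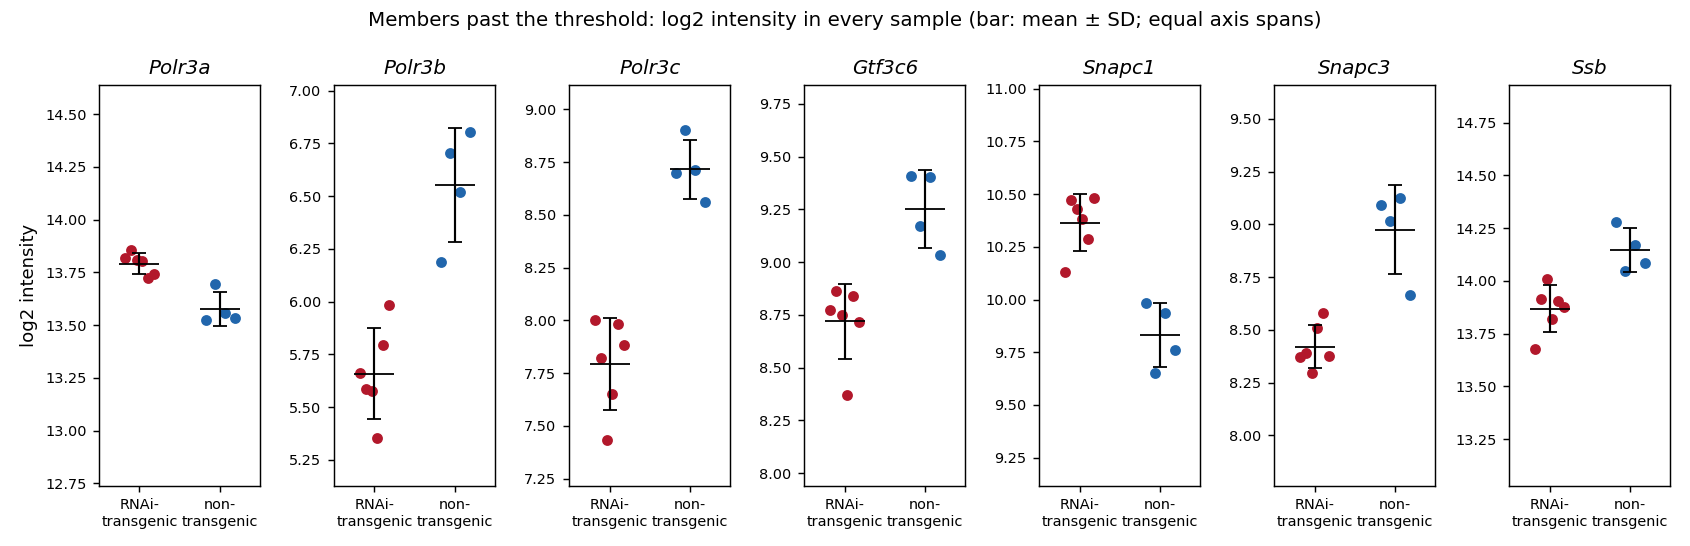
Log2 intensity of the 7 genes past the threshold, with a point for each of the 6 RNAi-transgenic (red) and 4 non-transgenic (blue) samples and bars for the mean and SD. The panels have equal spans, so the gap of Polr3c and Polr3b can be set against that of Polr3a and Ssb, and in no panel do the groups overlap.

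Of the factors that lead the enzyme to tRNA and 5S genes, 8 of 10 genes were tested, with 0 higher and 1 lower in limma (2 at an unadjusted p below 0.05) and a median difference of -0.22. The lower gene made up 12.5% of those tested, and over all genes 18.9% were higher and 18.3% lower. Gtf3c6, the smallest subunit of TFIIIC, was the gene that passed. It had 8.37, 8.76 and 8.86 at the lowest, median and highest transgenic sample, against 9.41, 9.17, 9.41 and 9.03 in non-transgenic samples 1, 2, 7 and 8. The highest transgenic sample stayed below the lowest non-transgenic one, and transgenic sample 11, at 8.37, stood apart from the other transgenic samples. Means were 8.72 ± 0.18 (SD, n = 6) in transgenic and 9.25 ± 0.18 (SD, n = 4) in non-transgenic oocytes, a difference of -0.53 (95% interval -0.79 to -0.28, limma adjusted p = 0.00458), or 1.45-fold lower. A further probe set of Gtf3c6 was too dim to test, at 4.52 in transgenic and 4.47 in non-transgenic oocytes.

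The remaining TFIIIC subunits did not pass with all samples in the fit. Gtf3c1, the largest subunit, which binds the B box of tRNA genes, averaged 8.34 ± 0.14 in transgenic and 8.52 ± 0.30 in non-transgenic oocytes (difference -0.19, 95% interval -0.48 to 0.11). Gtf3c2 averaged 11.33 ± 0.17 in transgenic and 11.11 ± 0.22 in non-transgenic oocytes (difference 0.22, 95% interval -0.04 to 0.47), and its 3 further probe sets differed by -0.13, -0.03 and 0.25. Gtf3c3 averaged 8.52 ± 0.14 in transgenic and 8.82 ± 0.25 in non-transgenic oocytes (difference -0.30, 95% interval -0.57 to -0.03, limma adjusted p = 0.0819). Without non-transgenic sample 1 both Gtf3c1, at -0.33, and Gtf3c3, at -0.42, were lower (limma adjusted p = 0.0325 and 0.0127). Gtf3c3 also passed after quantile normalization, median centring or array weights. Gtf3c4 and Gtf3c5 stayed under the filter level, with means of 4.17 and 3.84 in transgenic and 4.30 and 3.93 in non-transgenic oocytes.

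TFIIIA and TFIIIB showed no call. Gtf3a, the zinc finger protein TFIIIA that binds both the 5S gene and 5S RNA, averaged 9.77 ± 0.44 in transgenic and 10.02 ± 0.15 in non-transgenic oocytes (difference -0.25, 95% interval -0.71 to 0.20). None of the 3 TFIIIB genes passed in limma, and 0 of them had an unadjusted p below 0.05. Bdp1, the subunit common to all forms of TFIIIB, averaged 7.22 ± 0.25 in transgenic and 7.34 ± 0.24 in non-transgenic oocytes (difference -0.12, 95% interval -0.46 to 0.22). Brf1 is used at tRNA and 5S genes, and its paralog Brf2 takes its place at U6-type genes. Brf1 averaged 7.30 ± 0.61 in transgenic and 7.64 ± 0.24 in non-transgenic oocytes (difference -0.34, 95% interval -0.96 to 0.29), and Brf2 11.90 ± 0.09 in transgenic and 11.71 ± 0.27 in non-transgenic oocytes (difference 0.18, 95% interval -0.05 to 0.42). Single samples moved these differences: Gtf3a was at -0.086 without transgenic 5, Brf1 at -0.15 without transgenic 6 and Brf2 at 0.058 without non-transgenic 1. Within arrays, log2 Brf1 minus log2 Brf2 was -4.60 ± 0.57 (SD, n = 6) in transgenic and -4.08 ± 0.30 (SD, n = 4) in non-transgenic samples. These values serve to set arrays against each other and give no level of either gene against the other. The shift of -0.52 was within what an exact permutation of the 10 samples gave (two-sided p = 0.133 from 210 splits, smallest possible 0.00476). The size of the shift depended on the sample left out. Without transgenic sample 12 it was -0.70 (exact permutation p = 0.00794, the smallest that 126 splits allow). Without transgenic sample 6 it was -0.34 (exact permutation p = 0.190). Leaving out any other sample gave exact permutation p-values from 0.107 to 0.286. The shift was -0.89 among samples numbered 1 to 6 and -0.15 among those numbered 7 to 13. There the exact permutation p-values of 0.1 and 0.6 come from 10 splits that cannot go below 0.1.

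SNAPc held 1 higher and 1 lower gene among the 4 of 5 tested, with a median difference of 0.25. Over all genes tested 18.9% were higher and 18.3% lower, and with 4 genes the shares cannot be told apart. Snapc1 is a subunit of the core that binds the upstream element of U6 and 7SK genes. It had 10.13, 10.41 and 10.48 at the lowest, median and highest transgenic sample, against 9.98, 9.65, 9.93 and 9.76 in non-transgenic samples 1, 2, 7 and 8. All transgenic samples lay above all non-transgenic ones. Means were 10.36 ± 0.14 (SD, n = 6) in transgenic and 9.83 ± 0.15 (SD, n = 4) in non-transgenic oocytes, a difference of 0.53 (95% interval 0.32 to 0.74, limma adjusted p = 0.00129), or 1.45-fold. Snapc3, another core subunit, went the other way. It had 8.30, 8.38 and 8.58 at the lowest, median and highest transgenic sample, against 9.09, 9.02, 9.12 and 8.66 in non-transgenic samples 1, 2, 7 and 8. The groups did not overlap, with non-transgenic sample 8 nearest to the transgenic ones. Means were 8.42 ± 0.10 (SD, n = 6) in transgenic and 8.97 ± 0.21 (SD, n = 4) in non-transgenic oocytes, a difference of -0.55 (95% interval -0.79 to -0.32, limma adjusted p = 0.00194), or 1.47-fold lower. This call rests on its brightest probe set: a further one had 7.14 in transgenic and 7.13 in non-transgenic oocytes (limma adjusted p = 0.971), and the mean of both differed by -0.27 (limma adjusted p = 0.136).

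Snapc4, the largest SNAPc subunit and the one with Myb-like repeats that contact DNA, averaged 6.04 ± 0.11 in transgenic and 6.07 ± 0.10 in non-transgenic oocytes (difference -0.03, 95% interval -0.22 to 0.15). Snapc2 had the largest difference of the set, at 1.06, but also the widest spread. It averaged 6.37 ± 0.55 in transgenic and 5.31 ± 0.88 in non-transgenic oocytes, where samples 1, 2, 7 and 8 ranged from 4.36 to 6.49, and missed the threshold (95% interval 0.21 to 1.91, limma adjusted p = 0.0502). Without non-transgenic sample 8 it passed at 1.46 (limma adjusted p = 0.00638). Its probe set is of a kind that can match other genes. Snapc5 was below the filter level, with a mean of 3.29 in both groups.

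Ssb, the La protein, binds the run of U at the end of new Pol III transcripts and shields them, and it was lower in transgenic oocytes. It had 13.68, 13.89 and 14.01 at the lowest, median and highest transgenic sample, against 14.28, 14.05, 14.17 and 14.09 in non-transgenic samples 1, 2, 7 and 8. The highest transgenic and lowest non-transgenic samples were close but did not cross. Means were 13.87 ± 0.11 (SD, n = 6) in transgenic and 14.15 ± 0.10 (SD, n = 4) in non-transgenic oocytes, a difference of -0.28 (95% interval -0.43 to -0.13, limma adjusted p = 0.00771), or 1.21-fold lower. All 3 further probe sets were lower as well, at differences of -0.26, -0.30 and -0.45 (limma adjusted p = 0.0202, 0.00624 and 0.0189), while over all 16807 probe sets taken singly 34% passed in either direction. The groups overlapped in the sets at -0.26 and -0.45, and the set at -0.30 is of a kind that can match other genes. With the 3′ to 5′ difference of Gapdh as a covariate the adjusted p of Ssb in limma was 0.067, with a difference of -0.22. Maf1, which represses Pol III when nutrients are short, was dim, at 4.98 ± 0.15 in transgenic and 5.46 ± 0.70 in non-transgenic oocytes (difference -0.48, 95% interval -1.03 to 0.07), and non-transgenic sample 8, at 6.51, set most of its spread.

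**Figure D3:**
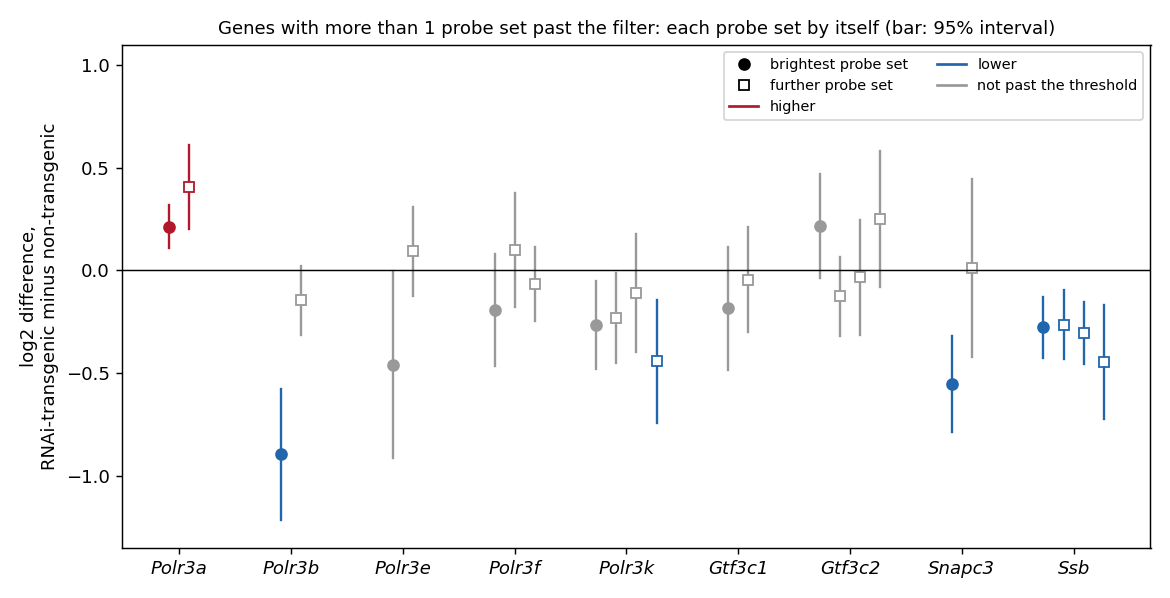
Log2 difference, RNAi-transgenic minus non-transgenic, of each probe set past the filter for the 9 genes that had more than 1, with 95% intervals. Filled circles are the brightest probe set and open squares further ones. The 4 probe sets of Ssb and both of Polr3a lie on the same side of 0, and those of Polr3b and Snapc3 do not share a call.

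The spread among samples differed between genes. The SD over transgenic samples ranged from 0.05 (Polr3a) to 0.61 (Brf1) and over non-transgenic samples from 0.08 (Polr3a) to 0.88 (Snapc2), with medians of 0.15 (transgenic) and 0.23 (non-transgenic) over the 22 genes. Over all genes tested these medians were 0.16 (transgenic) and 0.19 (non-transgenic). Non-transgenic sample 1 was the lowest of its group in 10 of the 22 genes and sample 8 in 8, and transgenic sample 11 was the lowest of its group in 6. No called gene lost its call when any single sample was left out. Samples numbered 1 to 6 and those numbered 7 to 13 were also compared apart, although no label calls them batches. All 7 called genes kept their direction in both ranges. Differences within the ranges, lower numbers first, were 0.22 and 0.21 for Polr3a, -0.84 and -0.95 for Polr3b, -1.05 and -0.80 for Polr3c, -0.49 and -0.58 for Gtf3c6, 0.53 and 0.54 for Snapc1, -0.70 and -0.41 for Snapc3, and -0.30 and -0.26 for Ssb. With 5 samples in each range, Polr3b and Polr3c passed in both, Snapc3 only among 1 to 6, Polr3a, Snapc1 and Ssb only among 7 to 13, and Gtf3c6 in neither (limma adjusted p = 0.0567 and 0.0888).

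The subunits that Pol III shares with the other polymerases were mixed. Of 8 such genes on a list drawn up with earlier results of these data known, 5 were tested, 3 higher and 2 lower, with a median difference of 0.27. This count and those of the Pol I and Pol II subunits below stand against 18.9% higher and 18.3% lower over all genes tested. Polr1c and Polr1d, the pair on which Pol I and Pol III assemble, averaged 8.39 ± 0.22 and 12.94 ± 0.14 in transgenic and 6.96 ± 1.39 and 12.67 ± 0.05 in non-transgenic oocytes. Their differences were 1.42 and 0.27 (limma adjusted p = 0.0382 and 0.0142). The value of Polr1c leans on non-transgenic sample 1, at 4.91 with the others between 7.35 and 7.89, and its call was lost without non-transgenic sample 7 or any of transgenic samples 4, 6, 11, 12 and 13. The call of Polr1d was lost with median centring, in both number ranges, and for the mean of its probe sets, which differed by 0.15 (limma adjusted p = 0.0773). Polr2h was higher by 0.74 (limma adjusted p = 0.0024), a call lost among samples numbered 7 to 13 (limma adjusted p = 0.056). Polr2e was lower, at a difference of -0.37 (limma adjusted p = 0.00705), a call lost in both number ranges. Polr2f was lower as well, at -0.25 (limma adjusted p = 0.042), a call lost without any of several samples. Of 6 subunits of Pol I alone 1 was higher and 3 were lower, with a median of -0.32, and of 8 subunits of Pol II alone 0 were higher and 1 was lower, with a median of 0.03 (2 at an unadjusted p below 0.05). Tbp, the TATA-binding protein present in TFIIIB, averaged 9.93 in transgenic and 9.92 in non-transgenic oocytes (difference 0.01).

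Lists of proteins that act on Pol III transcripts, drawn up in the same way, differed in whether their calls ran in 1 direction or both. Over all genes tested, 18.9% were higher and 18.3% lower, and the counts of all these lists stand against those shares. None of the 8 tested of 11 proteins of RNase P and RNase MRP, which trim tRNA and ribosomal RNA precursors, was higher, and 4 were lower (4 at an unadjusted p below 0.05 in limma), with a median of -0.18. Examples were Rpp21 at -0.52, Pop5 at -0.45 and Pop1 at -0.43 (limma adjusted p = 0.0088, 0.0119 and 0.00799). None of these calls held within a number range of 5 samples, with 0 of the list past the limma threshold in each. Of 9 tested genes of tRNA end processing and splicing 3 were higher and 2 lower. Elac2, the nuclease that cuts the 3′ trailer of tRNAs, had 8.96 to 9.21 in transgenic and 9.65 to 9.84 in non-transgenic samples, a difference of -0.67 (limma adjusted p = 8.13e-05). Trnt1, which adds the CCA end, was higher by 0.46 (limma adjusted p = 0.0169). The mean of its probe sets differed by 0.18 and did not pass (limma adjusted p = 0.128), nor did its brightest probe set in either number range, with the Gapdh covariate, or without non-transgenic 1 and transgenic 6.

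Of the genes of the selenocysteine tRNA pathway all 7 listed were tested, 0 were higher and 4 lower (5 at an unadjusted p below 0.05 in limma), with a median of -0.34. Eefsec, the elongation factor of this tRNA, differed by -0.78, Sars, which charges it with serine, by -0.73, and Pstk, which phosphorylates that serine, by -0.51 (limma adjusted p = 0.00054, 0.00142 and 0.00689). Within the number ranges 1 and 2 of the 7 passed as lower. Of 36 tested tRNA modification genes 6 were higher and 6 lower, with a median of -0.08, among them the pseudouridine synthase Pus7, which had 7.53 to 7.90 in transgenic and 8.49 to 8.58 in non-transgenic samples (difference -0.82, limma adjusted p = 3.87e-05), and the tRNA thiolation enzyme Ctu1 at 0.95. Of 6 partners of 7SK RNA 2 were higher and 0 lower (2 at an unadjusted p below 0.05 in limma). These were Cdk9, by 0.60, and its cyclin Ccnt1, by 0.77. Both calls were lost among samples numbered 7 to 13 (limma adjusted p = 0.145 for Cdk9 and 0.190 for Ccnt1). The call of Ccnt1 was also lost without non-transgenic sample 2, and without non-transgenic 1 and transgenic 6 together. Among 8 tested chaperones of Y RNA and other small RNAs 1 was higher and 3 were lower. Lsm8, which belongs to the ring on U6 RNA, had 8.70 to 9.07 in transgenic and 7.68 to 7.90 in non-transgenic samples, a difference of 1.05, and Lsm6 of the same ring differed by -0.39. None of the 6 tested signal recognition particle proteins, partners of 7SL RNA, passed in limma (1 at an unadjusted p below 0.05). Neither did the export gene Xpo5 or the 5S RNA carrier Rpl11, the 2 tested on a list of export genes and carriers. Their differences were -0.27 for Xpo5 and -0.24 for Rpl11 (limma adjusted p = 0.256 and 0.061). Only Rpl11 had an unadjusted p below 0.05. Of 8 tested upstream regulators of Pol III 2 were higher and 1 lower, with a median of -0.05. The list medians were set against the median of all genes, -0.03, without a test. The counts stand against 18.9% higher and 18.3% lower over all genes, also without a test. For counts at an unadjusted p below 0.05 the share of all genes was not counted, and it cannot be below 37.2%.

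**Figure D4:**
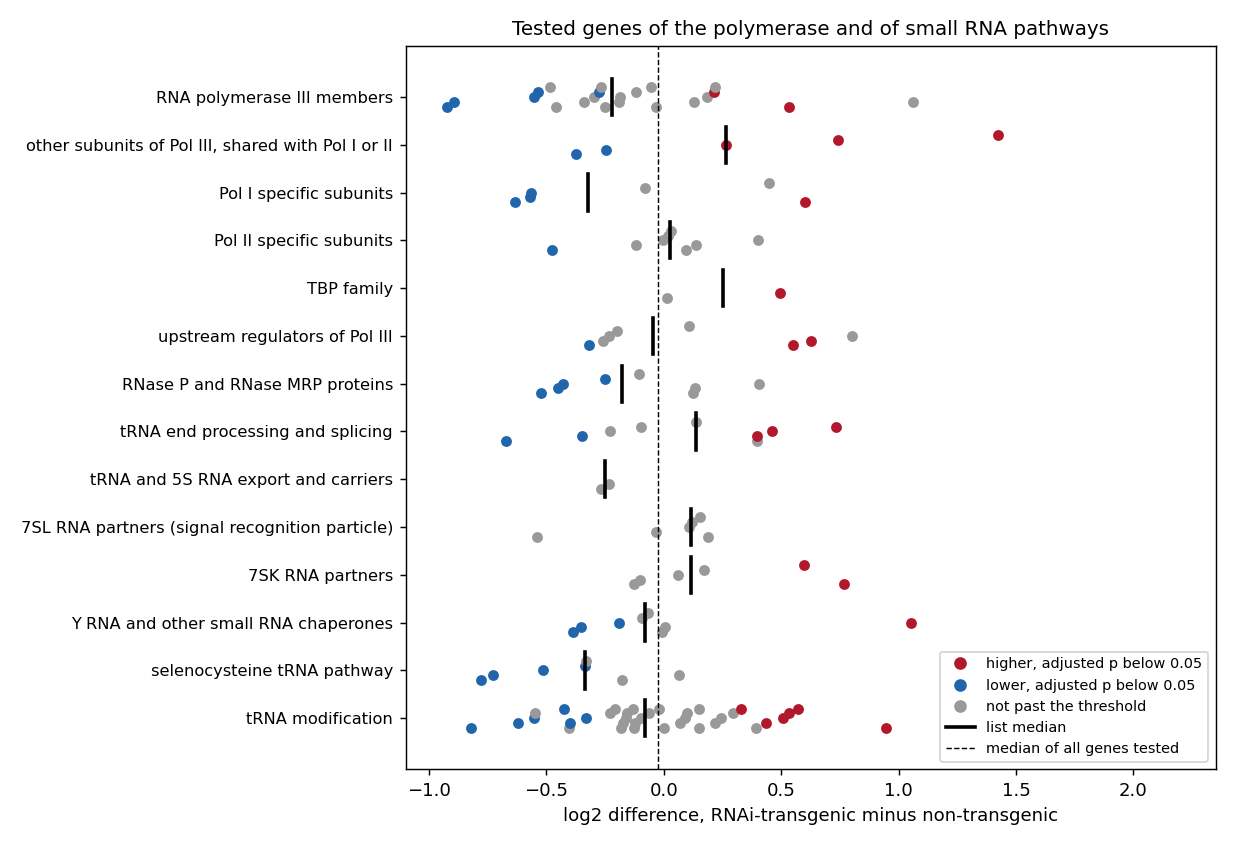
Log2 difference, RNAi-transgenic minus non-transgenic, of every tested gene of the Pol III set and of 13 related lists, with red points higher, blue points lower and grey points not past an adjusted p of 0.05. Black bars are list medians and the dashed line is the median of all genes at -0.03. Most lists hold points on both sides of the line, and the selenocysteine tRNA list has the lowest median at -0.34.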

How the data were processed

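The authors deposited 1 intensity per probe set and array, on a linear scale; they were made with GCRMA (version not given), per the submitters' processing notes. This method corrects background by probe sequence, normalizes arrays and summarises probes. Intensities were put on the log2 scale without further normalization. GCRMA pulls dim probe sets toward a floor. Of 45101 probe sets, 64 were controls, 34958 had 1 gene in the platform annotation, 932 several and 9160 were not listed. Probe sets above log2 5 (intensity 32) in at least 4 samples were kept, and the brightest over all 10 samples stood for its gene (10590 genes). Groups were compared with limma 3.58.1 (lmFit, eBayes with a trend; R 4.3.3) over all genes, with Benjamini-Hochberg adjustment at 0.05, and single values by a two-sided exact permutation test. The fit was checked on simulated data. The number of arrays limits the precision. Members, lists and named genes (all members; per list, at most 3 genes a direction by adjusted p, of which some are given) were chosen with earlier results of these data known. Alternatives were other filters, scalings, eBayes settings, probe set rules, number ranges, left-out samples and, chosen after seeing the data, 2 RNA length covariates and leaving out a pair of samples. Each sample came from a mouse of its own. Figures were drawn with matplotlib 3.10.9.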

Additional observations from a re-analysis of the deposited data

Results flagged for a closer look

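In 8 of 120 groups of samples, over 60 genes, the highest or lowest sample stood apart from the others by Dixon's criterion; chance gives about 1 in 20. Among transgenic samples these were Gtf3c6 in sample 11 at 8.37 (nearest 8.72), Snapc4 in sample 5 at 5.82 (nearest 6.04) and Lsm8 in sample 6 at 9.07 (nearest 8.77). Among non-transgenic samples they were Polr3e in sample 1 at 6.70 (nearest 7.74), Crcp in sample 1 at 8.03 (nearest 8.64), Tbpl1 in sample 7 at 6.61 (nearest 6.01), and, in sample 8, Gtf3a at 9.80 (nearest 10.08) and Maf1 at 6.51 (nearest 5.17). All values are log2 intensities.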

How the results depend on the processing

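No paired analysis was possible because the groups share no replicate number. Leaving out 1 sample gave 2 to 3 higher and 5 to 8 lower members, and a Brf1 over Brf2 shift of -0.70 to -0.34. Counts moved to 0 higher and 3 lower among samples numbered 1 to 6 only, and to 8 lower without non-transgenic 1 and transgenic 6 together. Signs turned for 10 members, none of them past the threshold except Snapc3. Among samples 1 to 6 Polr3d was 0.14, Bdp1 0.020 and Gtf3c1 0.040, and among samples 7 to 13 Crcp was -0.051, Gtf3a 0.095 and Snapc4 0.0068. With 1 sample left out Polr3d ranged from -0.17 to 0.016, Crcp from -0.039 to 0.20 and Snapc4 from -0.068 to 0.010, and Crcp was -0.049 without non-transgenic 1 and transgenic 6. Further probe sets gave 0.094 for Polr3e, 0.10 for Polr3f, -0.13 and -0.032 for Gtf3c2 and 0.012 for Snapc3. The cause was not tested. The median of all genes was -0.07 after quantile normalization and -0.08 after median centring. Polr3b, Maf1 and Snapc2 lie near the filter level, which limits their folds, and the difference of Snapc2 was 0.80 with log2(intensity + 16).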
